A study of Homo sapiens with 4 samples.

Results

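The genes described here are those of the extracellular matrix and of the receptors that hold cells to it, in the uveal melanoma cell line 92.1. They were taken by gene symbol: collagen chains, laminin chains, integrin subunits, fibulins, thrombospondins and lysyl oxidases by their family names, together with FN1, DAG1, SPARC, TGFBI, TNC, NID1, NID2, HSPG2, AGRN, CD44, POSTN, FBN1 and FBN2. Of 11650 genes with a value, 50 carried such a symbol. Genes averaging 1 FPKM or more across the 4 libraries were tested, which took in 37 of the 50 and 10271 genes in all. FPKM counts the sequenced fragments of a gene relative to how long its transcript is and how many fragments the library gave. The rule matched 135 symbols in a table of current gene names, and the 85 without a value were not analysed here. Among those without a value were NID1, NID2, TNC, POSTN, TGFBI, FBN1, COL3A1, COL5A1, COL6A3, ITGA4, ITGB3 and ITGB4.

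The cultured line 92.1 comes from a uveal melanoma, which arises from pigment cells of the eye. The study set 2 libraries of resistant 92.1 cells (Res) against 2 libraries of parental 92.1 cells (Ctrl), and asks which transcripts differ between them. The labels name no agent behind the resistance, no clone and no drug in the medium. Separate cultures are not stated for either group, so every p-value reflects library-to-library spread alone, and that spread may be technical. The cell line label counts up from sample to sample while the titles give 92.1 for all 4, and all 4 were taken as 92.1.

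The matrix is the protein mesh that cells secrete and stand on. Its basement membrane layer is built from laminin, a trimer of an alpha, a beta and a gamma chain, and from type IV collagen, tied together by perlecan and agrin. Cells grip it through integrins, pairs of an alpha and a beta subunit, and through dystroglycan, which binds laminin, agrin and perlecan. Matricellular proteins such as SPARC and thrombospondins tune this contact without bearing load, and lysyl oxidases crosslink collagen. Pigment cells make several of these proteins themselves.

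By log2 fold change of FPKM + 1, dystroglycan (DAG1), fibronectin (FN1) and type XVIII collagen (COL18A1) stood highest in Res among tested members. The laminin beta 1 chain (LAMB1) and the fibrillar collagen chain COL11A2 stood lowest among them. By plain ratios of FPKM, COL15A1 and COL1A2, both too low to test, differed more than FN1 and LAMB1. Thrombospondin 1 (THBS1) was present in both Res libraries and listed at 0 in both Ctrl libraries. No member passed the test over all genes, and as a whole the members lay evenly on both sides of 0. For 6 of these genes the stretch before a transcription start listed by RefSeq is shown. DAG1, FN1, COL18A1 and THBS1 are shown because they differed most towards Res on the scale of log2(FPKM + 1). LAMB1 is shown as the lowest laminin chain relative to Ctrl, and LAMB2 as the beta chain on the other side. Sequences are from RefSeq on GRCh38.p14, 5′ to 3′ on the strand of the gene, and hold no exonic base of the gene in GENCODE release 29. That release also has a DAG1 start farther upstream, at position 49468703, so the DAG1 stretch lies within its DAG1 gene. Positions are chr3:49469882-49470131 on the plus strand for DAG1, chr2:215436173-215436318 on the minus strand for FN1, chr21:45404915-45405136 on the plus strand for COL18A1, chr15:39580829-39581078 on the plus strand for THBS1, chr7:108003256-108003411 on the minus strand for LAMB1 and chr3:49133119-49133300 on the minus strand for LAMB2. Capitals mark the GC box GGGCGG, the CCAAT box, the letters GGAATG that TEAD factors bind and the cyclic AMP element TGACGTCA, each on either strand.
DAG1: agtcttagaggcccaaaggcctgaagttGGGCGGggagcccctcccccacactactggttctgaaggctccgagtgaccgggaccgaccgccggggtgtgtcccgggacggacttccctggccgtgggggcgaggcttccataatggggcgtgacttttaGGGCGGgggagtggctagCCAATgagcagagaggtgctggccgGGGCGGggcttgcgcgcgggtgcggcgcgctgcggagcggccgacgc
FN1: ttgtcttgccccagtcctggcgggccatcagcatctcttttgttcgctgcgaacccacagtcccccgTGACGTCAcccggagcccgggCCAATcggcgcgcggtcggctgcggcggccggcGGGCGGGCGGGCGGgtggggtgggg
COL18A1: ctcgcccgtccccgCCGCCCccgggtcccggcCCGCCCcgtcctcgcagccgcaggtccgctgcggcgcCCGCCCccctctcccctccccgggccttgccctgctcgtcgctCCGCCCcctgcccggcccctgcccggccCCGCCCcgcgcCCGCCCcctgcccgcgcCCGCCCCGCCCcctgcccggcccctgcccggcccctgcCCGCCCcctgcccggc
THBS1: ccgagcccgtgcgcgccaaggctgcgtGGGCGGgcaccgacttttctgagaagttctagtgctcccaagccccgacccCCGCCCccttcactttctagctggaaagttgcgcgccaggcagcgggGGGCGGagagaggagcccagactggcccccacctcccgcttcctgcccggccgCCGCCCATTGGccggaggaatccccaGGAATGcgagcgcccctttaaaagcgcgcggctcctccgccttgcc
LAMB1: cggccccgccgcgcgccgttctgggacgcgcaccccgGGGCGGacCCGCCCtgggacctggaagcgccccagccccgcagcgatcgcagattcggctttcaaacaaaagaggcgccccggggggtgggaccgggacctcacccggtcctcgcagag
LAMB2: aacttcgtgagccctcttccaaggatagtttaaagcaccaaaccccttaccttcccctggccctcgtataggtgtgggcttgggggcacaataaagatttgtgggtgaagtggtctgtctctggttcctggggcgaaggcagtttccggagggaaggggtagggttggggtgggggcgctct

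The table of starts held 38 of the 50 members. DAG1 and COL18A1 each had 2 starts listed, and the first is shown. The DAG1 stretch held 3 GC boxes and 1 CCAAT box, the THBS1 stretch 4 GC boxes, 1 CCAAT box touching a GC box and 1 GGAATG, and the FN1 stretch 1 cyclic AMP element, 1 CCAAT box and 3 GC boxes in overlapping letters. In COL18A1 the capitals are 9 GC boxes, of which some overlap, and in LAMB1 they are 2 GC boxes. The LAMB2 stretch held none of the 4 motifs, so the LAMB1 and LAMB2 stretches shown have no marked letters in common. The bases nearest each of these starts were left off and are not covered. In windows of 250 bases before each start, GGGCGG occurred in 42.6% of all 35116 windows and in 36 of the 55 windows of members (65.5%). CCAAT occurred in 32% of all windows and 15 member windows (27.3%), GGAATG in 11.9% and 8 (14.5%), and TGACGTCA in 1.65% and 1 (1.82%). The AP-1 letters TGANTCA were in 6.57% of all windows and 0 member windows, and the E-box CACGTG was in 6.34% and 2 (3.64%). The windows of all genes were not limited to genes with a value here, while every member has one. The shares therefore come from unlike sets. These matches describe letters and do not show that a factor binds. Of the stretches shown, those of FN1, COL18A1, LAMB1 and LAMB2 are shorter than 250 bases, since bases that belong to an exon in some transcript were left off.

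Tested with limma on log2(FPKM + 1), 0 of 37 members passed an adjusted p of 0.05, where 6 of all 10271 genes did (0.0584%). The lowest adjusted p of a member was that of DAG1, 0.0544 in limma. Without adjustment, limma gave p under 0.05 with higher values in Res to 7 of the 37 (18.9%), against 6.06% of all tested genes. In the other direction it gave such a p to 8 (21.6%), against 10.2% of all tested genes. Values of the 2 groups did not overlap, with Res above Ctrl, in 12 members (32.4%), against 19.1% of all tested genes. Res lay below Ctrl without overlap in 14 members (37.8%), against 31.8% of all tested genes. A log2 difference of at least 1 without overlap was reached by 3 members in the direction of Res (8.11%, all tested genes 1.47%) and by 2 in the direction of Ctrl (5.41%, all tested genes 1.66%). The median log2 fold change of the 37 was -0.03, with 18 above and 19 below 0, beside a median of -0.08 over all tested genes. So the members did not lie to one side. In the collagens, laminins, glycoproteins and integrin alpha subunits, unadjusted limma p under 0.05 occurred in both directions. The other classes had such a p in a single direction or not at all. Of the 37, 5 had a Ctrl mean and 3 a Res mean under 1 FPKM and so passed the minimum through the other group. The 5 were DAG1, COL18A1, ITGA3, COL1A1 and FBLN2, and the 3 were COL11A2, LOX and ITGA9. All but COL1A1 and FBLN2 had an unadjusted limma p under 0.05. DAG1, COL18A1 and COL11A2 also had a log2 difference of at least 1. The shares of members given above are therefore a description. Under median-of-ratios scaling the unadjusted split over all genes was 916 higher and 886 lower, and 858 and 943 under quantile normalization, against 622 and 1045 without scaling, while that of the members was 9 and 8 under each of these scalings.

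**Figure D1:**
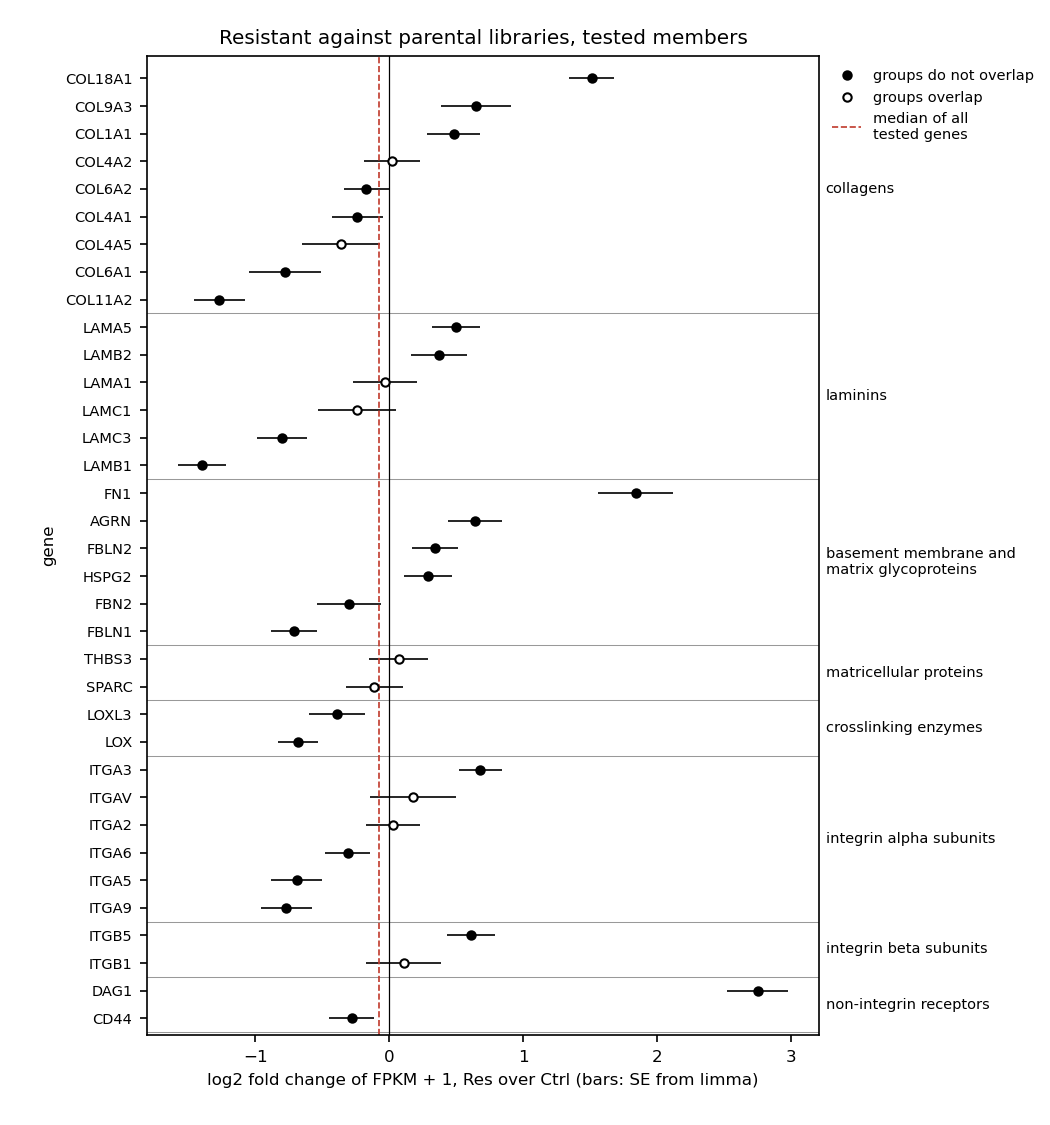
Log2 fold change of FPKM + 1, Res over Ctrl, for the 35 tested matrix and receptor genes, with the standard error from limma as bars and genes sorted within each class. Filled points are genes whose groups do not overlap, and the dashed line is the median of all tested genes (-0.08). DAG1 at 2.75 and FN1 at 1.84 lie farthest to the right, LAMB1 at -1.40 and COL11A2 at -1.27 farthest to the left.

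In the collagens, COL18A1 stood higher in Res, and COL11A2 and COL6A1 lower. Of the type IV chains, COL4A1 lay slightly lower without overlap, while COL4A2 and COL4A5 overlapped. Of 14 collagen chains with a value 9 were tested, and 4 of these lay above and 5 below 0, with a median of -0.17. COL18A1, a chain of the basement membrane collagen whose end fragment is endostatin (chr21:45405137-45513720, plus strand), was at 4.68 and 4.13 FPKM in Res, against 0.975 and 0.83 FPKM in Ctrl. Both Res libraries lay far above both Ctrl libraries. The log2 fold change was 1.51 ± 0.17 (SE), and the limma adjusted p was 0.0781. In the annotation 16.4% of the exonic bases of COL18A1 are also exon of SLC19A1 on the opposite strand, and the sources used here do not state whether strand was used in counting. Some overlap of this kind was found for 28 of the 50 members. COL11A2, a fibrillar chain best known from cartilage, was at 1.13 and 0.839 FPKM in Res, against 4.15 and 3.40 FPKM in Ctrl. This was the lowest collagen relative to Ctrl among those tested, with a log2 fold change of -1.27 ± 0.19 and a limma adjusted p of 0.103.

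Type VI collagen forms beaded filaments beside basement membranes from 3 different chains. COL6A1 was at 7.99 and 4.72 FPKM in Res, against 12.3 and 10.4 FPKM in Ctrl (log2 fold change -0.78 ± 0.27, limma adjusted p 0.278). Its partner COL6A2 was at 9.38 and 9.20 FPKM in Res, against 11.1 and 10.1 FPKM in Ctrl (log2 fold change -0.17 ± 0.17, limma adjusted p 0.645). Both chains lay below Ctrl without overlap, COL6A2 by little. The genes lie on the same arm of chromosome 21, and the ratio of COL6A1 to COL6A2 was 0.852 and 0.513 in Res, against 1.11 and 1.03 in Ctrl. COL9A3, a chain that coats fibrils in cartilage and vitreous and the collagen of highest mean level here, was at 24.0 and 14.8 FPKM in Res, against 12.3 and 11.0 FPKM in Ctrl. The Res libraries were both higher but wide apart, and the log2 fold change of 0.65 ± 0.26 had a limma adjusted p of 0.314.

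COL4A1 and COL4A2 make the common type IV trimer and are read in opposite directions from starts 126 bases apart. COL4A1 was at 6.57 and 5.54 FPKM in Res, against 7.71 and 6.96 FPKM in Ctrl, and COL4A2 at 7.95 and 7.54 FPKM in Res, against 8.80 and 6.55 FPKM in Ctrl. The log2 fold changes were -0.24 ± 0.19 and 0.02 ± 0.21, and the sign of COL4A2 turned to -0.02 when libraries were rescaled to a common sum. Of the chains left, COL4A5 overlapped between groups (log2 fold change -0.36) and COL1A1, a chain of the main fibrillar collagen, stood higher without overlap at 1.16 and 1.89 FPKM in Res, against 0.742 and 0.841 FPKM in Ctrl (limma adjusted p 0.322). Summed over 14 chains, collagen FPKM was 68.1 and 54.6 in Res, against 62.0 and 56.0 in Ctrl, and the groups overlapped. The total thus joined chains that stood on opposite sides of Ctrl.

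The beta chains set the laminins apart. LAMB1 (chr7:107923799-108003255, minus strand), the beta chain of most laminins, was at 8.35 and 6.79 FPKM in Res, against 21.4 and 21.8 FPKM in Ctrl. Each Res library was below both Ctrl libraries, and the Ctrl libraries lay close together. The log2 fold change was -1.40 ± 0.18, and the limma adjusted p was 0.0788. LAMB2, the beta chain that replaces LAMB1 in some basement membranes such as those of kidney and synapse, was at 12.4 and 10.4 FPKM in Res, against 9.63 and 7.55 FPKM in Ctrl. It stood higher without overlap, with a log2 fold change of 0.37 ± 0.21 and a limma adjusted p of 0.425. As a share of the summed FPKM of LAMB1 and LAMB2, LAMB2 made up 59.7% and 60.5% in Res, against 31.0% and 25.8% in Ctrl. LAMB2 was the more abundant beta transcript in each Res library and LAMB1 in each Ctrl library. An exact permutation test of this share over 2 against 2 libraries gave p = 0.333, two-sided, the smallest value such a design can give. It is 1 of 18 ratios computed, which were chosen after values of the genes had been seen. Nearly all of the 18 were without overlap and had this p, so neither sets the share apart.

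No gamma or alpha laminin chain stood as far from Ctrl as LAMB1. LAMC1, the gamma chain of most laminins, was at 26.1 and 14.5 FPKM in Res, against 22.4 and 24.0 FPKM in Ctrl, so that the Res libraries lay on both sides of Ctrl (log2 fold change -0.24 ± 0.29). LAMC3, a gamma chain of restricted expression, was at 1.80 and 1.68 FPKM in Res, against 4.27 and 3.30 FPKM in Ctrl. It lay lower without overlap, with a log2 fold change of -0.80 ± 0.19 and a limma adjusted p of 0.181. LAMA5, the alpha chain of laminins of mature basement membranes, was at 2.35 and 2.33 FPKM in Res, against 1.60 and 1.13 FPKM in Ctrl (log2 fold change 0.50 ± 0.18, limma adjusted p 0.286). LAMA1, the alpha chain of the laminin of early embryos, was the most abundant alpha chain in all 4 libraries and overlapped at 11.0 and 7.09 FPKM in Res, against 9.09 and 9.00 FPKM in Ctrl. Its log2 fold change of -0.03 turned to 0.06 under median-of-ratios scaling and 0.07 under quantile normalization. LAMA1 made up 79.3% and 71.6% of the summed alpha chains in Res, against 79.4% and 82.5% in Ctrl. Over the 6 tested laminin chains the median log2 fold change was -0.14, with 2 above and 4 below 0. That median rested on single Res libraries, being -0.48 without Res replicate 1 and 0.21 without Res replicate 2.

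**Figure D2:**
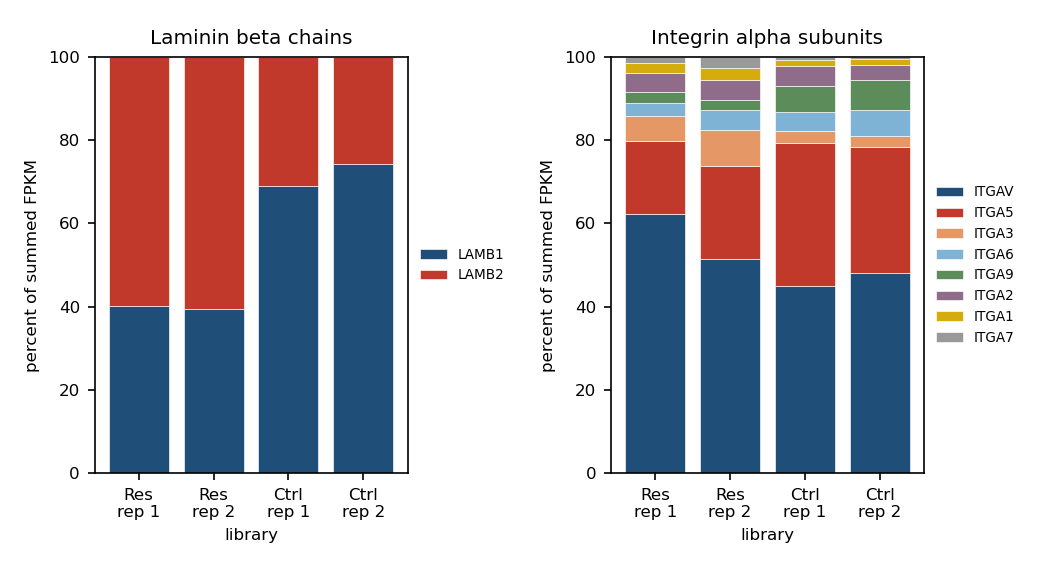
Left, LAMB1 and LAMB2 as percent of their summed FPKM in each library; right, the same for 8 integrin alpha subunits. LAMB2 makes up 59.7% and 60.5% in Res and 31.0% and 25.8% in Ctrl, and ITGA5 17.5% and 22.6% of alpha subunits in Res and 34.3% and 30.2% in Ctrl.

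Among the glycoproteins of matrix and basement membrane, fibronectin stood out. FN1 (chr2:215360440-215436172, minus strand), the ligand of integrins alpha 5 beta 1 and alpha V, was at 9.02 and 5.12 FPKM in Res, against 1.12 and 1.25 FPKM in Ctrl. Both Res libraries were several times above Ctrl but differed between themselves. The log2 fold change was 1.84 ± 0.28, and the limma adjusted p was 0.103. AGRN, agrin, which links laminin to dystroglycan, was at 7.87 and 6.26 FPKM in Res, against 4.43 and 3.87 FPKM in Ctrl (log2 fold change 0.64 ± 0.20, limma adjusted p 0.245). FBLN1, fibulin 1, a calcium-binding protein that joins fibronectin and laminin networks, stood lower at 15.4 and 14.0 FPKM in Res, against 26.1 and 23.3 FPKM in Ctrl (log2 fold change -0.71 ± 0.17, limma adjusted p 0.181). All 3 separated the groups, which was part of the rule that named them, and FBLN1 lay in the direction opposite to FN1 and AGRN. HSPG2, perlecan, was at 2.69 and 2.28 FPKM in Res, against 2.07 and 1.64 FPKM in Ctrl, and FBLN2 at 1.34 and 1.29 FPKM in Res, against 1.02 and 0.644 FPKM in Ctrl. FBN2, fibrillin 2 of elastic microfibrils, was at 3.09 and 1.77 FPKM in Res, against 3.10 and 3.20 FPKM in Ctrl, so Res replicate 1 lay just under Ctrl. The 6 tested glycoproteins had a median log2 fold change of 0.32, with 4 above and 2 below 0, and their sum with FBLN5 and FBLN7 was 40.6 and 31.7 FPKM in Res, against 39.0 and 35.0 FPKM in Ctrl.

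The matricellular proteins that were tested overlapped between groups. SPARC, a collagen-binding protein and the most abundant secreted matrix gene of the set, was at 63.8 and 44.8 FPKM in Res, against 58.1 and 57.6 FPKM in Ctrl (log2 fold change -0.11 ± 0.21). THBS3 was at 2.42 and 1.75 FPKM in Res, against 2.28 and 1.59 FPKM in Ctrl (log2 fold change 0.07 ± 0.22), and 25.4% of its exonic bases are also exon of genes on the opposite strand. THBS1 (plus strand of chromosome 15), a regulator of adhesion and of latent TGF-beta, had a mean below the minimum for testing. It was at 1.09 and 0.886 FPKM in Res and listed at 0 in both Ctrl libraries, so no fold change is given. Both Res values were low, near 1 FPKM.

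Both tested crosslinking enzymes stood lower in Res without overlap. LOX, lysyl oxidase, was at 0.587 and 0.525 FPKM in Res, against 1.40 and 1.59 FPKM in Ctrl (log2 fold change -0.68 ± 0.15, limma adjusted p 0.166). LOXL3 was at 1.96 and 1.18 FPKM in Res, against 2.30 and 2.34 FPKM in Ctrl (log2 fold change -0.39 ± 0.21, limma adjusted p 0.419). In the annotation 19.3% of its exonic bases are also exon of DOK1 and HTRA2 on the opposite strand. The other two, LOXL1 and LOXL2, were below the minimum for testing. LOXL1 lay above Ctrl without overlap and LOXL2 overlapped, so the whole enzyme class did not lie on one side.

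**Figure D3:**
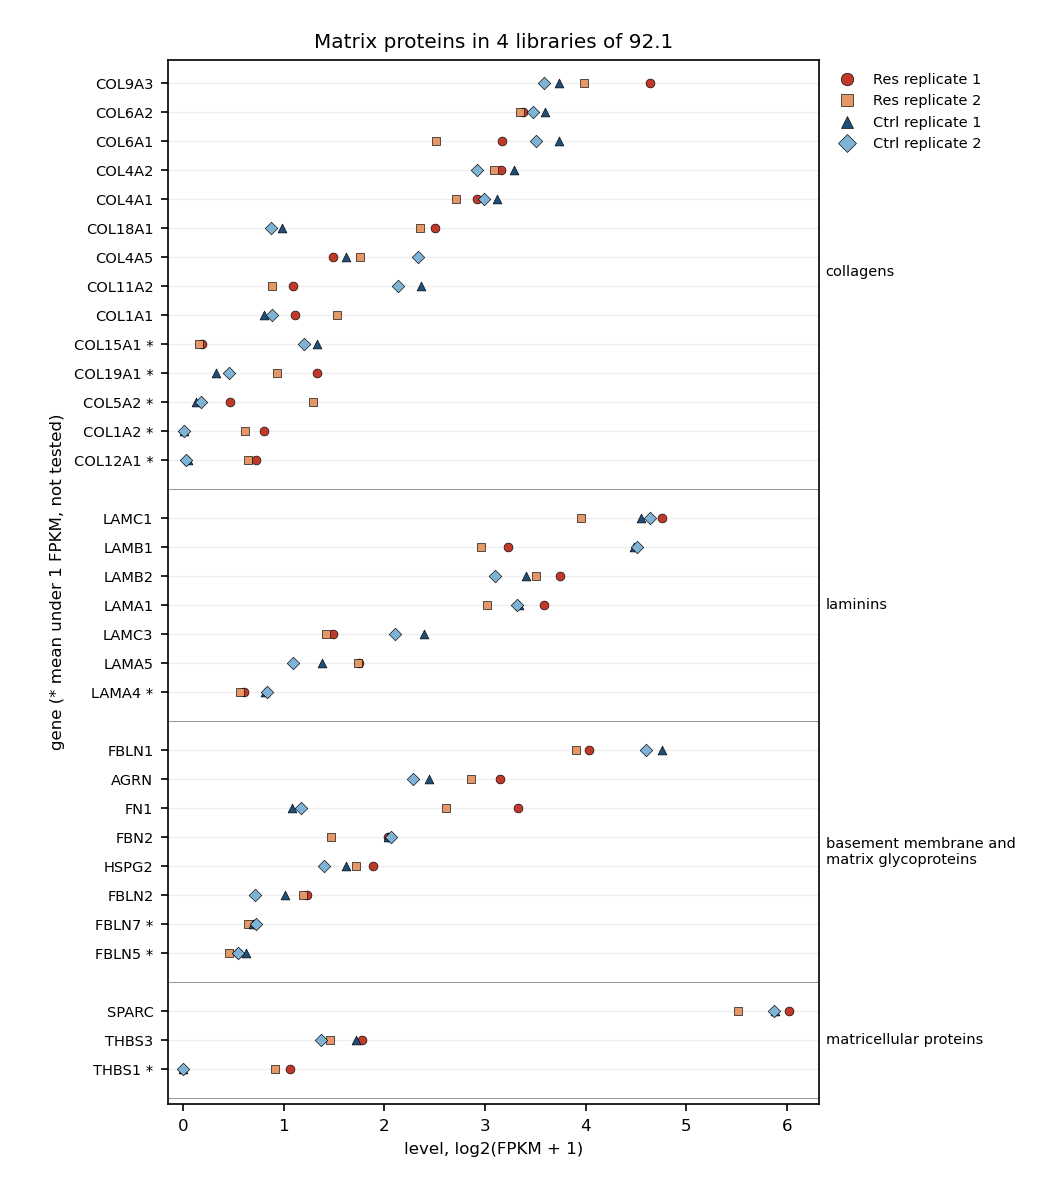
Level of 32 matrix genes as log2(FPKM + 1) in each of the 4 libraries, sorted by mean within each class; an asterisk marks genes below the mean of 1 FPKM needed for testing. Res symbols lie right of both Ctrl symbols for COL18A1, FN1, AGRN and THBS1 and left of them for LAMB1, COL11A2, LAMC3 and FBLN1.

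Of the integrin alpha subunits, ITGA3 stood higher and ITGA5 and ITGA9 lower in Res. Of 8 alpha subunits with a value 6 were tested, 3 above and 3 below 0, with a median log2 fold change of -0.14. ITGA5, the alpha subunit of the classical fibronectin receptor, was at 6.02 and 4.92 FPKM in Res, against 10.0 and 8.88 FPKM in Ctrl. It stood lower without overlap, with a log2 fold change of -0.69 ± 0.19 and a limma adjusted p of 0.214. FN1, its ligand, stood on the other side of 0. ITGA9, a subunit that binds tenascin, osteopontin and a fibronectin splice form, was at 0.924 and 0.539 FPKM in Res, against 1.79 and 2.09 FPKM in Ctrl (log2 fold change -0.77 ± 0.19, limma adjusted p 0.183). ITGA3, a laminin-binding subunit, was at 2.06 and 1.84 FPKM in Res, against 0.869 and 0.818 FPKM in Ctrl (log2 fold change 0.68 ± 0.16, limma adjusted p 0.175). The second laminin-binding subunit, ITGA6, was at 1.08 and 1.08 FPKM in Res, against 1.35 and 1.83 FPKM in Ctrl (log2 fold change -0.31 ± 0.17, limma adjusted p 0.429). These subunits therefore lay on opposite sides of Ctrl, and the ratio of ITGA3 to ITGA6 was 1.90 and 1.71 in Res, against 0.641 and 0.446 in Ctrl. ITGA2, a collagen-binding subunit, overlapped (log2 fold change 0.03, and -0.00098 when rescaled to a common sum).

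ITGAV, the alpha subunit shared by vitronectin and fibronectin receptors, had the highest level of the alpha subunits in every library. It was at 21.5 and 11.2 FPKM in Res, against 13.1 and 14.1 FPKM in Ctrl, and its Res libraries lay on either side of Ctrl (log2 fold change 0.18 ± 0.32). Without Res replicate 1 the log2 fold change was -0.26. As a share of all alpha FPKM, ITGA5 made up 17.5% and 22.6% in Res, against 34.3% and 30.2% in Ctrl, and ITGAV 62.3% and 51.3% in Res, against 44.9% and 48.1% in Ctrl. ITGA3 made up 5.96% and 8.45% in Res, against 2.97% and 2.78% in Ctrl. None of these shares overlapped between groups, and each had the smallest exact permutation p of the design, 0.333. The same held for every ratio computed except the share of the members in all FPKM. SPARC, for example, made up 13% and 13% of member FPKM in Res, against 13.6% and 13.6% in Ctrl. Lack of overlap therefore sets none of these ratios apart. The sum of alpha subunits was 34.5 and 21.8 FPKM in Res, against 29.2 and 29.4 FPKM in Ctrl.

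Of the beta subunits only ITGB1 and ITGB5 had a value among the 8 named in the gene table. ITGB1, the partner of most matrix-binding alpha subunits, had the highest level of all 50 members at 131.9 and 76.5 FPKM in Res, against 88.9 and 97.8 FPKM in Ctrl. The Res libraries again lay on both sides of Ctrl (log2 fold change 0.11 ± 0.28, and -0.28 without Res replicate 1). ITGB5, which pairs with ITGAV to bind vitronectin, was at 8.64 and 7.72 FPKM in Res, against 5.14 and 4.90 FPKM in Ctrl. It stood higher without overlap, with a log2 fold change of 0.61 ± 0.18 and a limma adjusted p of 0.228. ITGB5 made up 6.15% and 9.17% of beta FPKM in Res, against 5.47% and 4.77% in Ctrl.

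Outside the integrins, dystroglycan gave the largest log2 fold change of the tested members. DAG1 (chr3:49468703-49535618, plus strand) encodes both the matrix-facing alpha and the membrane-spanning beta part of dystroglycan. It was at 8.47 and 5.58 FPKM in Res, against 0.15 and 0.191 FPKM in Ctrl. Both Ctrl libraries lay near 0, while both Res libraries were in the range of ITGA5 and ITGB5. The log2 fold change on FPKM + 1 was 2.75 ± 0.23, with a limma adjusted p of 0.0544, just outside the threshold. In limma the adjusted p ranged between 0.0161 and 0.133 over the alternatives, passing 0.05 without Ctrl replicate 1 (0.0161), without Ctrl replicate 2 (0.0207) and after rescaling to a common sum (0.0474). The level of DAG1 was 6.42% and 7.29% of that of ITGB1 in Res, against 0.168% and 0.195% in Ctrl. CD44, the hyaluronan receptor, was at 45.4 and 36.4 FPKM in Res, against 50.6 and 48.8 FPKM in Ctrl (log2 fold change -0.28 ± 0.17, limma adjusted p 0.468). It was the second most abundant receptor among the members and lay slightly below Ctrl without overlap.

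**Figure D4:**
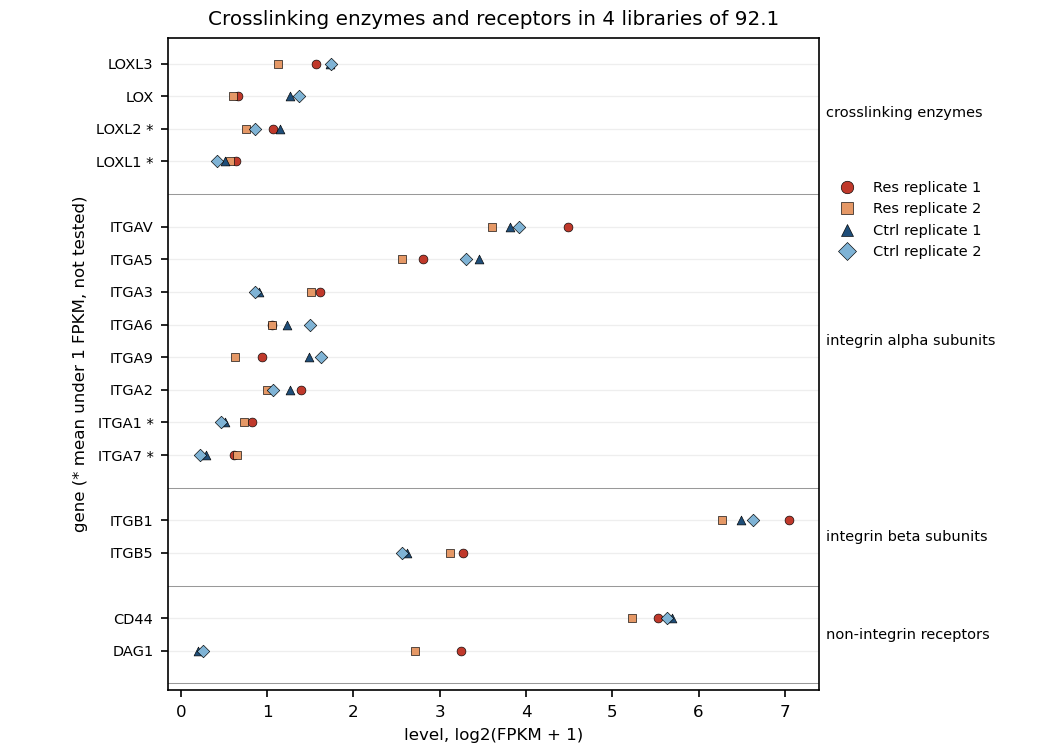
Level of the crosslinking enzymes, integrin subunits and other receptors as log2(FPKM + 1) in each of the 4 libraries, sorted by mean within each class; an asterisk marks genes below the mean of 1 FPKM needed for testing. DAG1 is the widest separation, ITGA3 and ITGB5 lie right of Ctrl, ITGA5 and ITGA9 left, and the Res libraries straddle Ctrl for ITGAV and ITGB1.

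The rule also took ITGB1BP1, which binds the tail of ITGB1 inside the cell, and ITGB3BP, a centromere protein, for their names alone. Their log2 fold changes were 0.06 and -0.13, and each overlapped between groups. Neither is counted in a class of matrix or receptor genes.

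The 13 members under the minimum for testing had no value above 1.51 FPKM in any library. Of these, 8 stood higher in Res without overlap, 2 lower, and 3 overlapped, where of all 1379 genes under the minimum 26.9% stood higher and 31.3% lower without overlap. A gene of this kind can enter the files through 1 group alone, so these counts are a description. COL15A1, a basement membrane collagen related to COL18A1, was at 0.137 and 0.119 FPKM in Res, against 1.51 and 1.30 FPKM in Ctrl. It thus lay opposite to COL18A1. COL1A2, the partner chain of COL1A1, was at 0.747 and 0.531 FPKM in Res, against 0.00848 and 0.00683 FPKM in Ctrl, and COL12A1 at 0.652 and 0.563 FPKM in Res, against 0.0375 and 0.0217 FPKM in Ctrl. COL19A1 was at 1.51 and 0.914 FPKM in Res, against 0.258 and 0.376 FPKM in Ctrl, and COL5A2 at 0.385 and 1.44 FPKM in Res, against 0.0903 and 0.133 FPKM in Ctrl. All 4 stood above Ctrl from a low level, COL5A2 with the Res libraries far apart. The integrin subunits ITGA1 and ITGA7 were at 0.765 and 0.656 FPKM and at 0.534 and 0.574 FPKM in Res, against 0.424 and 0.377 FPKM and 0.224 and 0.161 FPKM in Ctrl. With no minimum, limma gave the 13 no adjusted p below 0.0803, that of COL15A1.

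Genes that work with the members but fall outside the symbol rule were read from 4 lists, none of which shares a gene with the members. None of their tested genes passed an adjusted p of 0.05 in limma. Of 18 tested genes for folding, modifying and trimming collagen, 3 lay above and 15 below 0 (83.3% below, all tested genes 58.6%), with a median log2 fold change of -0.24 beside -0.08 over all genes. In that list limma gave an unadjusted p under 0.05 to 0 higher and 4 lower genes (22.2%), against 6.06% higher and 10.2% lower of all tested genes. PLOD1, which hydroxylates collagen lysines, was at 13.1 and 9.07 FPKM in Res, against 23.1 and 19.3 FPKM in Ctrl, with a limma adjusted p of 0.198. SERPINH1, the collagen chaperone HSP47, was at 17.0 and 12.9 FPKM in Res, against 21.8 and 23.2 FPKM in Ctrl, with a limma adjusted p of 0.274. PLOD1 and SERPINH1 were named for an unadjusted limma p under 0.05 without overlap, so their separation follows from that choice.

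Differences as large as those of DAG1 and FN1 also lay among matrix proteins outside the symbol rule. Of 19 tested, 12 lay above and 7 below 0 (median log2 fold change 0.25), and limma gave an unadjusted p under 0.05 to 5 higher (26.3%) and 4 lower (21.1%), against 6.06% and 10.2% of all tested genes. CCN1, a matricellular integrin ligand, was at 44.6 and 30.5 FPKM in Res, against 5.68 and 5.52 FPKM in Ctrl (log2 fold change 2.52, limma adjusted p 0.0617). CCN2, its close relative, was at 5.85 and 4.56 FPKM in Res, against 0.989 and 0.827 FPKM in Ctrl (log2 fold change 1.70, limma adjusted p 0.0781). Both lay well above Ctrl. BCAN, the proteoglycan brevican, was at 84.7 and 87.2 FPKM in Res, against 232.4 and 188.8 FPKM in Ctrl (log2 fold change -1.28, limma adjusted p 0.0788), and BGN, biglycan, at 4.25 and 3.78 FPKM in Res, against 9.95 and 9.60 FPKM in Ctrl (log2 fold change -1.11, limma adjusted p 0.114). CCN1, CCN2, BCAN and BGN were named for an unadjusted limma p under 0.05 without overlap, so their separation follows from that choice. SPP1, osteopontin, an integrin ligand named after its values were seen, was at 54.5 and 29.4 FPKM in Res, against 3.14 and 5.01 FPKM in Ctrl (log2 fold change 3.04, limma adjusted p 0.0781).

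Of 24 tested matrix receptors outside the rule, 13 lay above and 11 below 0 (median log2 fold change 0.06), and limma gave an unadjusted p under 0.05 to 3 in each direction (12.5% each, all tested genes 6.06% higher and 10.2% lower). CD36, a receptor for thrombospondins and lipids, was at 75.1 and 52.5 FPKM in Res, against 13.6 and 14.9 FPKM in Ctrl (log2 fold change 2.06, limma adjusted p 0.0781). THBS1, one of its ligands, was at a low level in Res and listed at 0 in Ctrl, as given above. Among the syndecans, cell surface proteoglycans that act beside integrins, SDC3 was at 8.28 and 9.29 FPKM in Res, against 5.58 and 3.96 FPKM in Ctrl, and SDC4 at 11.8 and 7.81 FPKM in Res, against 16.8 and 14.5 FPKM in Ctrl. MCAM, a melanoma adhesion molecule, was at 8.82 and 8.54 FPKM in Res, against 13.3 and 12.0 FPKM in Ctrl. The limma adjusted p was 0.215 for SDC3, 0.291 for SDC4 and 0.276 for MCAM. CD36, SDC3, SDC4 and MCAM were named for an unadjusted limma p under 0.05 without overlap, so their separation follows from that choice. The 26 tested genes that tie integrins to actin and signalling lay 10 above and 16 below 0 (median log2 fold change -0.11), with 0 higher and 3 lower at an unadjusted p under 0.05 in limma. The 3 are 11.5% of the list, near the 10.2% of all tested genes. ILK, integrin-linked kinase, was at 13.7 and 12.6 FPKM in Res, against 19.1 and 19.0 FPKM in Ctrl, and PTK2, focal adhesion kinase, at 7.86 and 5.43 FPKM in Res, against 9.88 and 11.0 FPKM in Ctrl. Both kinases were named for an unadjusted limma p under 0.05 without overlap, so their separation follows from that choice.

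The 2 Res libraries differed from each other in one direction over these genes. Res replicate 1 was above Res replicate 2 in 35 of the 37 tested members (94.6%), where it was in 66.1% of all tested genes. Ctrl replicate 1 was above Ctrl replicate 2 in 22 of the 37 (59.5%), where it was in 55.2% of all tested genes. The median log2 difference of Res replicate 1 over Res replicate 2 was 0.23 over tested members and 0.15 over all tested genes. The members are long genes, with a median longest transcript of 5.8 kb against 3.62 kb over all tested genes. Among all tested genes the share with Res replicate 1 above Res replicate 2 was 60.8% for transcripts under 3 kb, 69.5% between 3 and 6 kb and 69.8% from 6 kb. For Ctrl replicate 1 above Ctrl replicate 2 these shares were 59.8%, 55.2% and 45.8%. The summed FPKM of all 50 members was 490.7 and 345.4 in Res, against 426.6 and 425.1 in Ctrl, so Res replicate 1 had the highest sum and Res replicate 2 the lowest. As a share of all FPKM the members made up 0.168% and 0.118% in Res, against 0.151% and 0.15% in Ctrl. These values are unscaled, and the median-of-ratios factors over all genes were 1.04 for Res replicate 1 and 0.906 for Res replicate 2. In Ctrl they were 1.06 and 1.02. What separates the Res libraries was not tested.

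**Figure D5:**
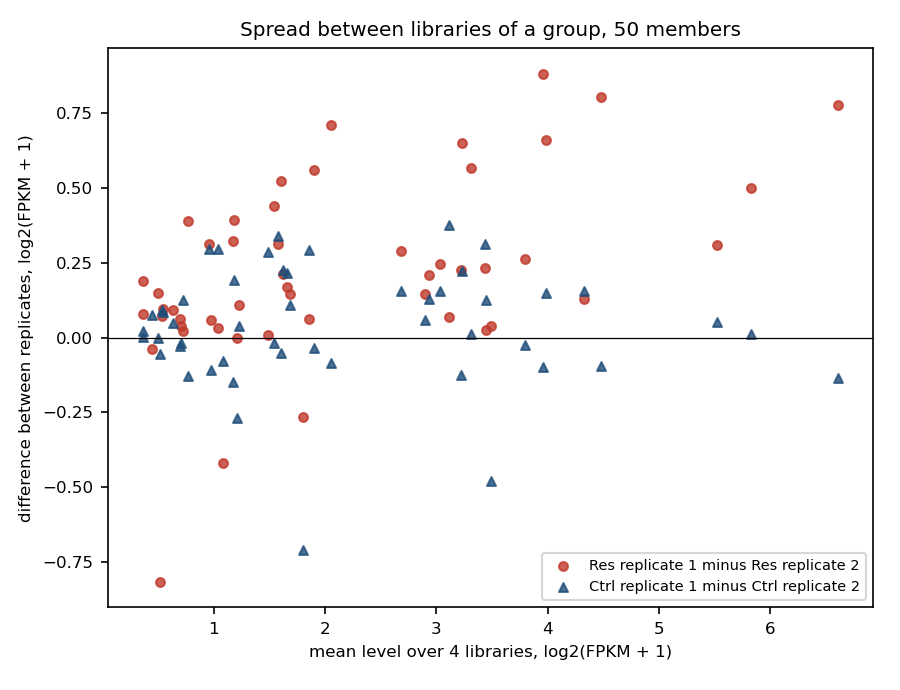
Difference between the 2 libraries of a group, log2(FPKM + 1), for each of the 50 members against its mean level over 4 libraries. Of the points for Res, 46 of 50 lie above 0, and of those for Ctrl 30 of 50.

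The FPKM sum of a library was 292736 and 293481 in Res, against 282602 and 283387 in Ctrl, and depth is unknown because the files hold no counts, so no counting interval is given. All 8 melanocytic markers had a value, with a sum of 2992.6 and 2260.7 FPKM in Res, against 2586.6 and 2307.0 FPKM in Ctrl. MLANA was at 212.0 and 207.4 FPKM in Res, against 221.4 and 210.9 FPKM in Ctrl, and overlapped. Of the 8, 6 lay below 0 (median log2 fold change -0.49) and 3 had an unadjusted limma p under 0.05, all lower: DCT at 0.486 and 0.517 FPKM in Res, against 4.88 and 5.46 FPKM in Ctrl (log2 fold change -2.04, limma adjusted p 0.0544), S100B with a log2 fold change of -0.91 and SOX10 with -0.58. MITF was at 9.64 and 31.8 FPKM in Res, against 35.3 and 37.4 FPKM in Ctrl (unadjusted limma p 0.111). The 2 markers above 0 were TYRP1 and TYR, each with a log2 fold change of 0.28. TYRP1 was at 2143.1 and 1513.6 FPKM in Res, against 1490.3 and 1484.4 FPKM in Ctrl, without overlap. TYR was at 177.1 and 114.4 FPKM in Res, against 120.8 and 112.8 FPKM in Ctrl, and overlapped. Markers of other cells were read because fibroblasts also make collagen and fibronectin. Of 12 fibroblast markers 4 had a value (LUM, ACTA2, S100A4 and TAGLN), summing to 20.9 and 16.6 FPKM in Res, against 6.16 and 7.67 FPKM in Ctrl, and DCN, PDGFRA, PDGFRB, THY1 and FAP had none. Of 8 epithelial markers 4 had a value (sum 21.9 and 27.2 FPKM in Res, against 11.1 and 13.0 FPKM in Ctrl), with none for EPCAM and CDH1. Among them KRT19 was at 1.1 and 6.29 FPKM in Res, against 0.205 and 0.287 FPKM in Ctrl. Of 8 leukocyte markers 3 had a value (sum 13.5 and 12.2 FPKM in Res, against 32.8 and 27.8 FPKM in Ctrl), with none for PTPRC. Of 8 endothelial markers EMCN alone had a value (18.8 and 31.8 FPKM in Res, against 19.4 and 21.0 FPKM in Ctrl). Unadjusted limma p was under 0.05 for 2 of 3 tested fibroblast and 3 of 4 tested epithelial markers, all higher. It was so for 2 of 2 tested leukocyte markers, both lower. Of all tested genes 6.06% were higher and 10.2% lower at this p. The part of these genes in the differences of FN1, COL1A2 or other members was not tested, and in bulk RNA fewer cells of a type and less RNA per cell cannot be told apart.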

How the data were processed

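RNA of 2 Res and 2 Ctrl samples of 92.1 was sequenced. Per the labels' protocols, libraries were stranded, after poly(A) selection or removal of ribosomal RNA, without saying which was used. The deposited values are FPKM per gene, computed by the authors and named so per the file headers. Per the submitters' processing notes the build was hg38, but 11551 of 11650 identifiers carry a suffix that GENCODE uses for annotation mapped to the older human build. The gene models behind the values were therefore not settled, and the positions and exon overlaps printed are those of GRCh38. The aligner, FPKM program, annotation and strand setting were not given in the sources used here. Every gene reached 0.5009 FPKM in the mean of its higher group, so a minimum near that value appears to have been set before deposit. Depth is unknown, so precision is given by the spread between libraries.

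From these files, symbols were matched through current gene names (11575 of 11650 identifiers), and coordinates are from GENCODE release 29. Values were transformed as log2(FPKM + 1), genes averaging 1 FPKM or more across libraries were kept, and the groups were compared two-sided in limma 3.58.1 (R 4.3.3), letting the variance follow the level, with Benjamini-Hochberg adjustment over all 10271 genes at 0.05. The script was tested on simulated data. Fold changes on this scale understate those of low genes. Ratios of members were tested by exact permutation, and 18 were computed. The minimum exact p for 2 against 2 libraries is 0.333. The members, classes and lists were chosen with earlier results of these data known, and the ratios after values were seen.

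In each class the text gives full values for members past the threshold, for up to 4 in each direction with the largest change among those with unadjusted limma p under 0.05 and no overlap, and for the 2 of highest mean. Of each list it names up to 2 in each direction by p. Members shown beyond this, SPP1 among them, were chosen after their values were seen. Promoter stretches come from RefSeq. COL9A3, COL6A1, COL1A1, COL5A2, COL1A2, LAMA1, LAMC3, AGRN, LOXL2, ITGA3, ITGA9 and ITGA7 had no entry there. The 12 alternatives were a pseudocount of 0.1, no minimum, a minimum mean of 5 FPKM, median-of-ratios scaling, quantile normalization, rescaling to a sum of 1000000, no variance trend, the replicate number as a block, and each library left out. Python 3.11.15 made the tables and plots.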

Additional observations from a re-analysis of the deposited data

How the results depend on the processing

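Of 37 tested members, 19 could be compared under all 12 alternatives and 18 under 11, since a minimum mean of 5 FPKM removed them. Among the 37, 28 kept their direction under each alternative run for them and 9 reversed under some. DAG1 was the 1 member to pass an adjusted p of 0.05, after rescaling to a common sum (1 member called) and when a Ctrl library was left out (0 to 1 over the libraries). Members higher at unadjusted p under 0.05, 7 in all, numbered 13 with no minimum, 2 at a minimum mean of 5 FPKM and 3 to 9 with a library left out. Those lower, 8 in all, numbered 4 at that minimum and 4 to 13. Over all genes, the 5 called higher became 3 with a pseudocount of 0.1, median-of-ratios scaling or quantile normalization and 0 to 19 with a library left out, and the 1 called lower became 3 after rescaling to a common sum and 0 to 13. At unadjusted p under 0.05 all genes numbered 327 higher and 630 lower at a minimum mean of 5 FPKM, and 332 to 1107 higher and 336 to 2528 lower with a library left out. Other matrix proteins called higher numbered 0 to 2 and other matrix receptors 0 to 1. The class median of the collagens was 0.25 with no minimum, of the laminins -0.48 to 0.21 with a library left out, of the glycoproteins -0.03 at a minimum mean of 5 FPKM. Crosslinking enzymes had -0.93 (pseudocount 0.1), -0.24 (no minimum) and -0.84 (common sum), integrin alpha subunits 0.11 (no minimum) and -0.29 to -0.04 with a library left out, and the non-integrin receptors 2.20 (pseudocount 0.1), -0.28 (minimum mean of 5 FPKM, CD44 alone) and 1.80 (common sum). Reversed log2 fold changes under scaling were -0.02 for COL4A2 and -0.00098 for ITGA2 (common sum) and 0.06 and 0.07 for LAMA1 (median-of-ratios and quantile). With a library left out, COL4A2 ranged over -0.16 to 0.21, ITGA2 -0.17 to 0.23, ITGAV -0.26 to 0.62, ITGB1 -0.28 to 0.50, ITGB1BP1 -0.18 to 0.30, LAMA1 -0.31 to 0.25, LAMC1 -0.65 to 0.16, SPARC -0.36 to 0.14 and THBS3 -0.10 to 0.24. Fewer genes or libraries enter under a higher minimum or a left-out library, and more genes enter with no minimum. Rescaling to a sum of 1000000 raises every FPKM before 1 is added. The added amount then weighs less, as it does with a pseudocount of 0.1. The cause of the other shifts was not tested. With 1 library left in a group, that library is assumed to vary like the other group. Same-numbered libraries did not deviate together over genes (correlation -0.071). This value cannot show whether they were cultured or prepared together, so pairing was not settled. A limma fit with the replicate block gave 7 members higher and 8 lower, and 569 and 909 over all genes, at unadjusted p under 0.05.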
